A study of Homo sapiens with 8 samples.

Results

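The 9 genes described here encode the enzymes that methylate DNA, those that place the main repressive methyl marks on histone H3, and the proteins that bring them to chromatin: DNMT1, DNMT3A, DNMT3B, UHRF1, HELLS, EZH1, EZH2, SUV39H1 and SUV39H2. They were chosen by name, with earlier results of these data known. All 9 had a probe named through its RefSeq transcript, among 20296 named genes. All 9 were among the 15811 genes well above background on at least 1 array, and 8 of the 9 were so on all 8 arrays.

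RNA was taken from MCF10A, a non-tumorigenic human mammary epithelial line, with p53 (p53+/+) and from a p53-null derivative (p53-/-). Cells were harvested untreated at 0 h or at 12, 24 and 48 h after a 2 h exposure to 0.5 µg/ml doxorubicin (also called adriamycin), a drug that damages DNA. The study's methods give another dose for this experiment than the labels. There was 1 single-colour Agilent array for each genotype and time, so no single value has a replicate error, and each genotype is 1 cell line. Levels are log2 signals relative to the 75th percentile of the same array, so that a level of 0 equals that percentile.

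DNMT1 copies DNA methylation onto the new strand after replication, and UHRF1 binds hemimethylated DNA and recruits DNMT1 to it. DNMT3A and DNMT3B methylate sites that were unmethylated, and HELLS is a chromatin remodeller needed for normal DNA methylation. EZH1 and EZH2 are the alternative catalytic subunits of Polycomb repressive complex 2 (PRC2), which makes the H3K27 methyl mark, and SUV39H1 and SUV39H2 make the H3K9 trimethyl mark of heterochromatin. Several of these genes, among them UHRF1, DNMT1 and EZH2, are known to be expressed mostly in dividing cells.

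The genotype labels were checked first. The median level of 20 p53 targets, CDKN1A and MDM2 among them, was 3.29, 3.34 and 3.32 on the treated p53+/+ arrays, from -0.54 to 0.19 on the p53-/- arrays and -0.23 on the array labelled p53+/+ 0 h. Of the 20, 13 lay within their p53-/- range on this array, 5 above it and 2 below it, and low levels of such genes in untreated cells do not by themselves contradict the label. Over 11828 genes well above background everywhere, this array differed by a median of 0.18 from p53-/- 12 h and of 0.27 to 0.37 from the other p53-/- arrays, against 0.43 to 0.53 from the treated p53+/+ arrays. The epithelial genes CDH1 and EPCAM were at -3.13 and -3.14 on it. They were at 1.15 to 2.1 on the treated p53+/+ arrays and at -3.69 to -0.71 on the p53-/- arrays. Both were higher after treatment in p53-/- cells too, so low levels in untreated cells do not by themselves contradict the label. KRT14 and KRT17 were at 4.53 and 4.58, above their p53-/- ranges of 3.31 to 4.07 and 3.38 to 4.18. EGFR, at -0.72, lay below its p53-/- range of -0.60 to -0.13, and KRT5 and KRT18 lay within theirs. Over all genes this array lay closest to p53-/- 12 h, and the markers did not all place it in the p53-/- range. Its label is left in doubt. The fold changes from 0 h in p53+/+ cells are given below with this array and with p53-/- 0 h in its place. The comparison of treated arrays does not use it. A second array stood apart, since of 10 spike-in transcripts 0 rose well above background at 48 h in p53+/+ cells, where the other 7 arrays detected 6 each. The keratins KRT5, KRT14, KRT17 and KRT18 and EGFR were well above background on all 8 arrays, whereas the basal marker TP63 was so on 3. Of markers of other cell types, PTPRC was so on 8 (-4.27 to -3.68), PECAM1 and COL1A1 on 5 and CD3E on 1. On the array labelled p53+/+ 0 h PECAM1, at -2.39, lay below its p53-/- range of -2.22 to -1.59. COL1A1, at -3.21, lay within its own of -3.35 to -2.31. On treated p53+/+ arrays they were at -6.04 to -4.77 and -6.23 to -5.43.

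UHRF1 had the largest difference of the 9. The array labelled p53+/+ 0 h read 2.30, followed in p53+/+ cells by -0.91 at 12 h, -2.07 at 24 h and -3.32 at 48 h. The p53-/- level was 1.70 at 0 h and 2.72, 2.62 and 2.48 after treatment. The treated p53+/+ levels all lay below every other array, and each later one was lower than the one before. The processed signals behind them were 436, 194 and 66.3 in treated p53+/+ cells and 7355, 7034 and 6700 in treated p53-/- cells. At equal times UHRF1 was thus 12.3-fold, 25.9-fold and 55.7-fold lower in p53+/+ than in p53-/- cells. In limma over the 6 treated arrays, in which the 3 time points stand in for replicates, the difference was -4.71 ± 0.57 (SE) on the log2 scale (adjusted p = 0.0036). The second UHRF1 probe (NM_001290050) gave -3.90.

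Against the array labelled p53+/+ 0 h the UHRF1 level was 9.27-fold, 20.7-fold and 49.2-fold lower at the 3 times, and against p53-/- 0 h it was 6.11-fold, 13.7-fold and 32.4-fold lower. The fall was therefore past 2-fold at each time with either baseline. In p53-/- cells UHRF1 was 2.02-fold, 1.90-fold and 1.72-fold higher than at 0 h. The fitted rise of 0.91 in p53-/- cells did not pass the test (adjusted p = 0.74 in limma).

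**Figure D1:**
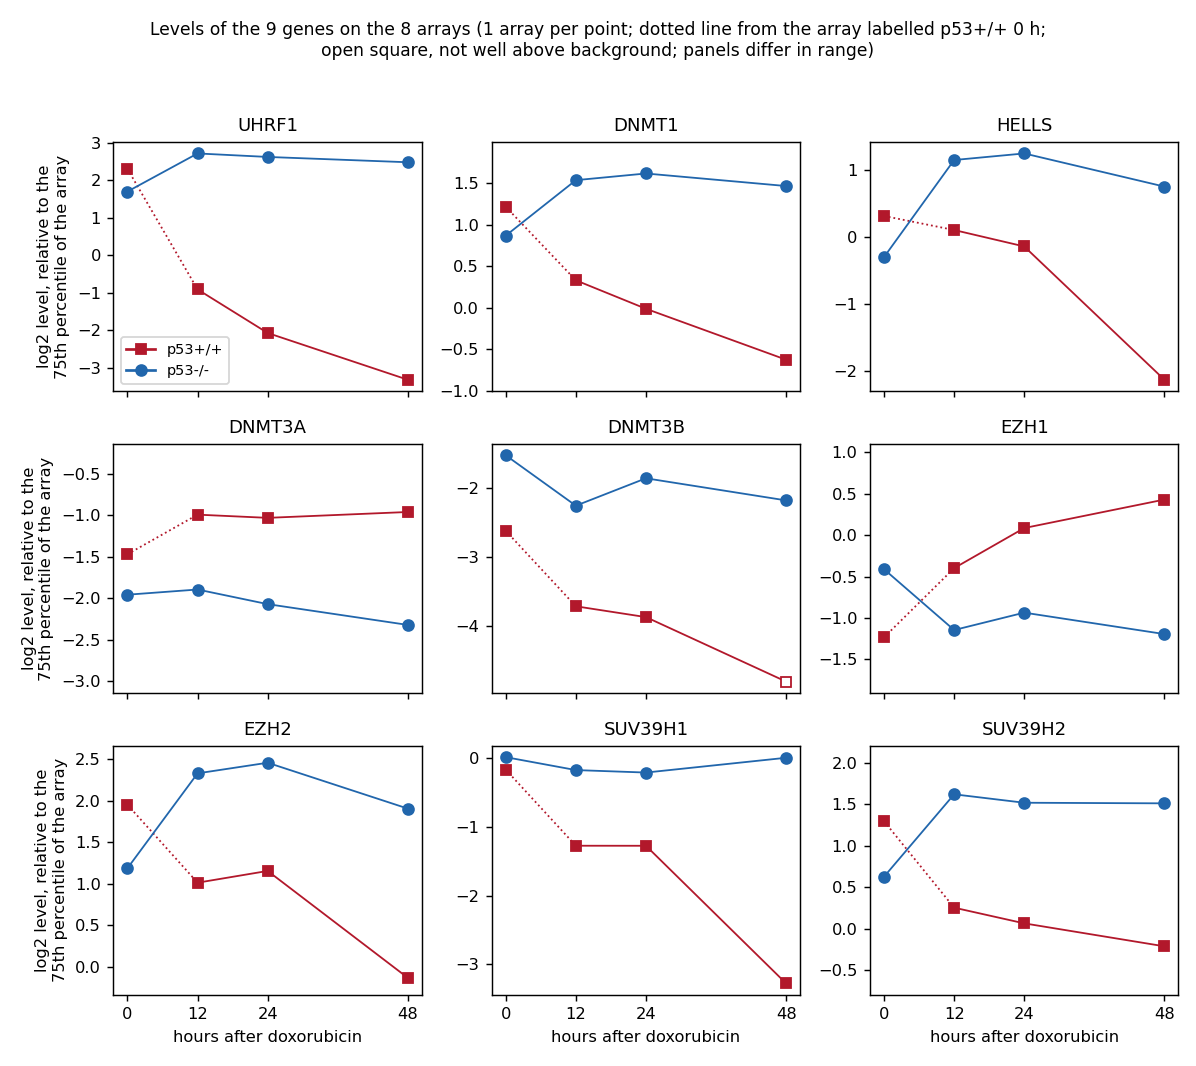
Levels of the 9 genes by hours after doxorubicin, 1 panel per gene, as log2 signal relative to the 75th percentile of the array, with squares for p53+/+ and circles for p53-/- (1 array per point). The dotted line starts at the array labelled p53+/+ 0 h, on which 13 of 20 p53 targets lay within their p53-/- range. The open square marks DNMT3B at 48 h, not well above background. In 7 panels the 3 treated p53+/+ points lie below the 3 treated p53-/- points, and in those of DNMT3A and EZH1 above them.

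DNMT1, the maintenance methyltransferase, moved in the same directions over a smaller range. The array labelled p53+/+ 0 h read 1.22, followed in p53+/+ cells by 0.33 at 12 h, -0.01 at 24 h and -0.62 at 48 h. Its p53-/- level was 0.87 at 0 h, and 1.54, 1.62 and 1.47 after treatment. The treated levels of the genotypes did not overlap, and those of p53-/- cells had an SD of 0.08 over the 3 times, against 0.48 in p53+/+ cells. The difference at equal times grew from 2.31-fold to 3.1-fold and 4.27-fold, and the fitted difference was -1.64 ± 0.27 (SE, adjusted p = 0.011). Against the array labelled p53+/+ 0 h DNMT1 was 1.85-fold, 2.34-fold and 3.59-fold lower, and against p53-/- 0 h it was 1.45-fold, 1.84-fold and 2.82-fold lower, so that with the latter baseline it passed 2-fold at 48 h and at no earlier time.

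HELLS, the remodeller, fell late. It read 0.31 on the array labelled p53+/+ 0 h, then 0.10 and -0.14 at 12 and 24 h and -2.13 at 48 h. The p53-/- level went from -0.30 at 0 h to 1.15, 1.24 and 0.75 after treatment. Of its whole fall from the array labelled p53+/+ 0 h, 8.6% had been reached at 12 h, whereas UHRF1 had reached 57.1% by then. HELLS was 3.97-fold lower at 48 h than at 24 h in p53+/+ cells, a step that does not use a 0 h array but uses the array on which no spike-in was detected. From the array labelled p53+/+ 0 h it was 1.16-fold, 1.37-fold and 5.44-fold lower at the 3 times, whereas against p53-/- 0 h it was 1.32-fold and 1.12-fold higher and then 3.56-fold lower. It was also the 1 member of the 9 that was at least 2-fold above its own 0 h array at all 3 times in p53-/- cells, by 2.73-fold, 2.92-fold and 2.07-fold. The fitted difference between treated genotypes, -1.77 ± 0.58 (SE), did not pass (adjusted p = 0.083), and without the 48 h arrays it was -1.22 and passed (adjusted p = 0.043). Its second probe (NM_001289072) gave -1.58. That probe read -0.40 on the array labelled p53+/+ 0 h, then -0.93, -1.06 and -2.46, so more of its fall had been reached at 12 h.

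The catalytic paralogues DNMT3A and DNMT3B, which methylate new sites, differed between genotypes in opposite directions. DNMT3A was at -1.47 on the array labelled p53+/+ 0 h and at -0.99, -1.03 and -0.96 in treated p53+/+ cells. Without p53 it was at -1.96 at 0 h and at -1.90, -2.07 and -2.32 after treatment. Its changes from the 0 h array of the same label were at most 0.51 in size, and against p53-/- 0 h the p53+/+ level was 1.95-fold, 1.90-fold and 1.995-fold higher, each under 2-fold, and all treated p53+/+ levels were above all p53-/- levels. The fitted difference was 1.1 ± 0.19 (SE, adjusted p = 0.012), but 0.50 without scaling of the arrays (adjusted p = 0.078), and it did not pass without the 12 h, the 24 h or the 48 h arrays (adjusted p = 0.053, 0.17 and 0.061). The 3 probes did not give the same difference. The second probe for NM_175629 gave 0.71, and a probe for NM_175630, well above background on 4 arrays, gave -0.28.

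DNMT3B was at -2.63 on the array labelled p53+/+ 0 h and at -3.72 and -3.87 at 12 and 24 h. At 48 h in p53+/+ cells it was not well above background, with a measured -4.81. The p53-/- arrays had -1.53 at 0 h, and -2.26, -1.86 and -2.19 after treatment. It was thus lower in p53+/+ cells at every time, by 2.74-fold at 12 h, 4.02-fold at 24 h and at least 5.43-fold at 48 h, and was 2.13-fold lower on the array labelled p53+/+ 0 h than on p53-/- 0 h. From the array labelled p53+/+ 0 h it was 2.13-fold, 2.38-fold and at least 4.0-fold lower, and against p53-/- 0 h 4.55-fold, 5.07-fold and at least 8.53-fold lower. The fitted difference of treated arrays, which uses the measured value at 48 h, was -2.03 ± 0.32 (SE, adjusted p = 0.0094). With normexp background correction this difference was -1.01 (adjusted p = 0.0021), the mean change from the array labelled p53+/+ 0 h went from -1.51 to -0.69, and DNMT3B was no longer 2-fold lower than that array at any time. DNMT3B did not rise in p53-/- cells, where its changes were -0.73, -0.33 and -0.65, and in this it differed in sign from UHRF1, DNMT1 and HELLS.

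EZH1 and EZH2, which take the same place in PRC2, also went opposite ways. EZH2 was at 1.95 on the array labelled p53+/+ 0 h, and at 1.01, 1.15 and -0.13 in treated p53+/+ cells. Its p53-/- level was 1.19 at 0 h and 2.33, 2.46 and 1.91 after treatment. The treated genotypes did not overlap, and the p53+/+ level dropped 2.44-fold between 24 and 48 h, a step that uses the array on which no spike-in was detected. The fitted difference was -1.55 ± 0.38 (SE, adjusted p = 0.035). From the array labelled p53+/+ 0 h the level was 1.92-fold, 1.74-fold and 4.25-fold lower, and against p53-/- 0 h it was 1.13-fold, 1.02-fold and 2.50-fold lower. The p53-/- level was 2.21-fold, 2.41-fold and 1.65-fold above its own 0 h array.

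EZH1 was at -1.23 on the array labelled p53+/+ 0 h, and at -0.40, 0.08 and 0.43 in treated p53+/+ cells. Its p53-/- level was -0.41 at 0 h and -1.14, -0.94 and -1.19 after treatment. EZH1 thus stood higher at each later time in p53+/+ cells and lower after treatment in p53-/- cells. The fitted difference was 1.13 ± 0.25 (SE, adjusted p = 0.027), and 0.53 without scaling (adjusted p = 0.095), and it too did not pass with any one time left out (adjusted p = 0.053, 0.21 and 0.11 without 12, 24 and 48 h). From the array labelled p53+/+ 0 h it was 1.78-fold, 2.49-fold and 3.16-fold higher, but against p53-/- 0 h the ratios were 1.01-fold, 1.41-fold and 1.79-fold, so that its passing of 2-fold in p53+/+ cells rests on the array whose label is in doubt.

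SUV39H1 and SUV39H2, the H3K9 methyltransferases, were both lower than in p53-/- cells at all 3 treated times, and differed in the size of the drop at 48 h. SUV39H1 was at -0.17 on the array labelled p53+/+ 0 h, at -1.28 and -1.28 at 12 and 24 h and at -3.28 at 48 h. The p53-/- arrays had 0.01 at 0 h and -0.18, -0.22 and -0.00 after treatment, the narrowest range of the 9 in that genotype (0.22). Its level in p53+/+ cells was 2.15-fold lower at 12 and at 24 h and 8.59-fold lower at 48 h than on the array labelled p53+/+ 0 h, and against p53-/- 0 h it was 2.44-fold, 2.44-fold and 9.74-fold lower. The fitted difference between treated genotypes, -1.81 ± 0.54 (SE), missed the threshold (adjusted p = 0.065), and without the 48 h arrays it was -1.08 and passed it (adjusted p = 0.045). The second probe (NM_001282166), well above background on 7 arrays, gave -1.35. It read -2.38 on the array labelled p53+/+ 0 h, then -3.14, -3.45 and -4.15, with a smaller drop at 48 h. With the mean of all probes SUV39H1 was not 2-fold lower than the array labelled p53+/+ 0 h at 12 h.

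SUV39H2 was at 1.3 on the array labelled p53+/+ 0 h, and at 0.26, 0.07 and -0.21 in treated p53+/+ cells. Without p53 it was at 0.63 at 0 h and at 1.62, 1.52 and 1.51 after treatment. Its step from 24 to 48 h was -0.28, against -2.0 for the SUV39H1 probe used. Both steps use the array on which no spike-in was detected. The p53-/- level of SUV39H2 was higher after treatment. The fitted difference was -1.51 ± 0.19 (SE, adjusted p = 0.0044). It was 2.06-fold, 2.35-fold and 2.84-fold lower than on the array labelled p53+/+ 0 h, but 1.3-fold, 1.48-fold and 1.79-fold lower than on p53-/- 0 h, under 2-fold at each time.

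**Figure D2:**
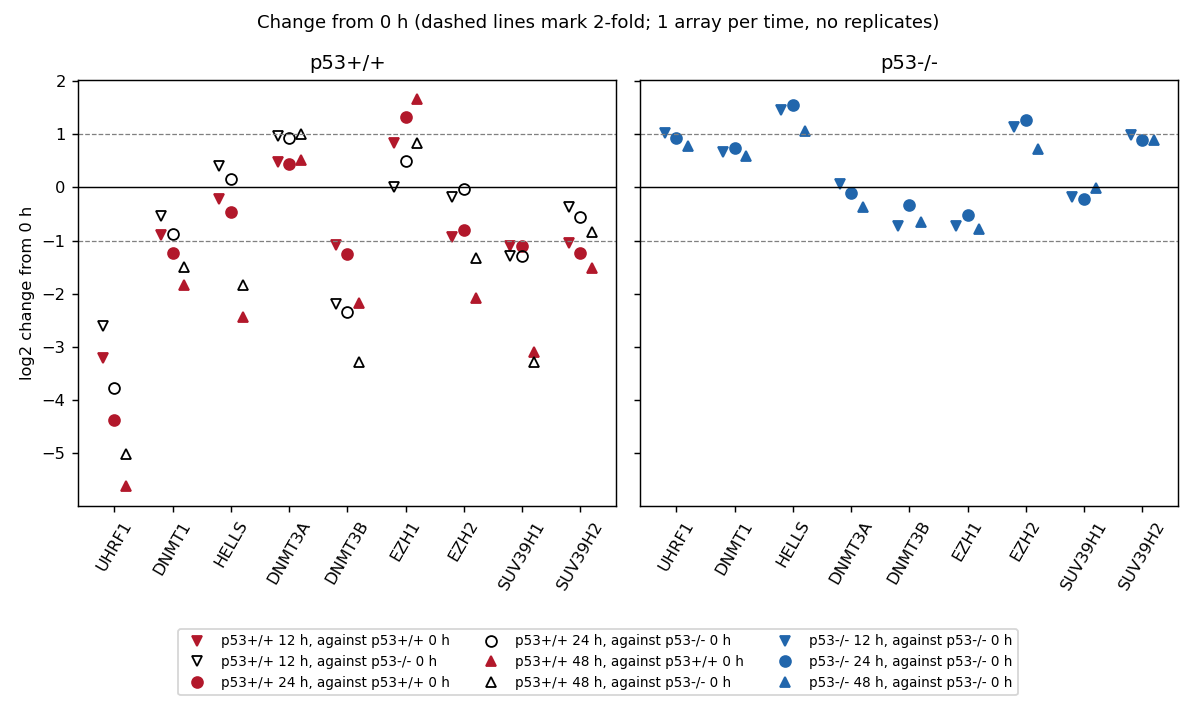
Log2 change of each gene from 0 h at 12, 24 and 48 h (downward triangles, circles and upward triangles), p53+/+ on the left and p53-/- on the right, with dashed lines at 2-fold. Filled red symbols use the array labelled p53+/+ 0 h and open symbols the p53-/- 0 h array. UHRF1, DNMT3B and SUV39H1 are below the lower line at all 3 times with either baseline, and EZH1 is above the upper line at 24 and 48 h with the first baseline and not with the second.

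Set side by side, treated p53+/+ levels were all below treated p53-/- levels for 7 of the 9 genes (19.9% of 15811 genes were) and all above them for 2, DNMT3A and EZH1 (24.6% were). In limma the difference passed a Benjamini-Hochberg adjusted p of 0.05 over 28947 probes for 5 lower genes, DNMT1, DNMT3B, UHRF1, EZH2 and SUV39H2 (background 7.40% of probes), and for the 2 higher genes (background 10.6%). Higher probes made up 58.8% of all such calls with the 75th percentile, 45.7% with the median and 14.5% without scaling, and the median difference of all probes moved from 0.09 to -0.51 without scaling. Scaling subtracts a constant from each array, so the place of a gene relative to this shift cannot change. The calls of DNMT3A and EZH1 as higher in p53+/+ cells depend on the scaling. The number of calls also depends on single times, with fewer arrays in the fit. Without the 24 h arrays 0 of the 9 passed, without the 12 h arrays EZH2, DNMT3A and EZH1 no longer did, and without the 48 h arrays DNMT3A and EZH1 no longer did. The shares of all probes called lower and higher fell too. They were 4.18% and 5.04% without the 12 h arrays, 0.294% and 0.715% without the 24 h arrays, and 3.91% and 4.97% without the 48 h arrays.

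**Figure D3:**
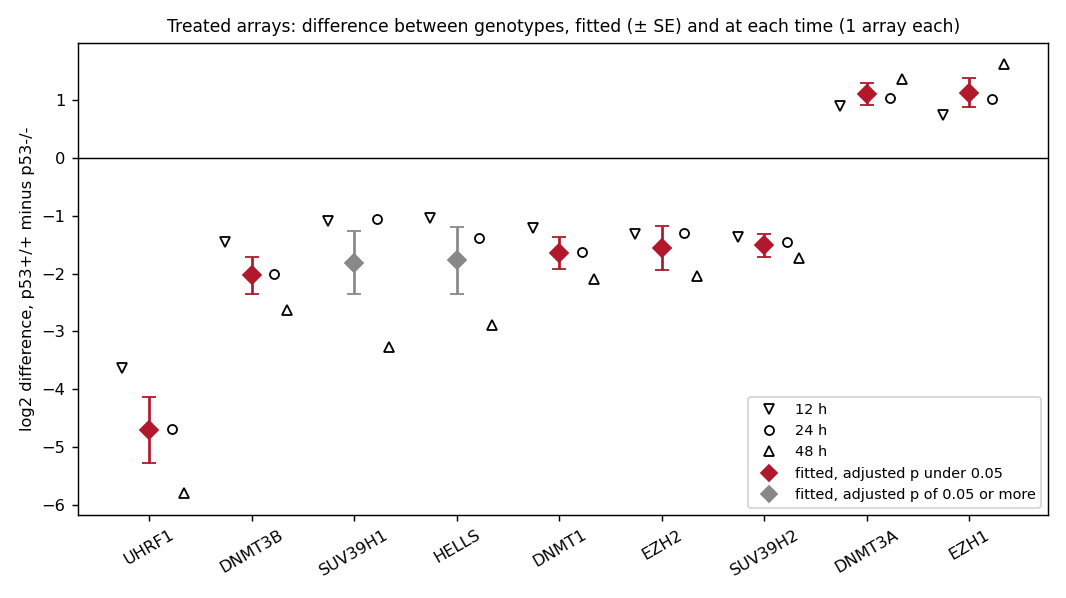
Log2 difference between treated p53+/+ and treated p53-/- arrays for each gene, ordered by size, as the limma estimate ± SE (diamonds, red where the adjusted p was under 0.05) and as the single differences at 12, 24 and 48 h (open symbols, 1 array per genotype each). UHRF1 stands at -4.71, the other 6 lower genes lie between -2.03 and -1.51, and DNMT3A and EZH1 are at 1.1 and 1.13.

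By the 2-fold rule, which is a rule of size and no test, 4 of the 9 were lower than the array labelled p53+/+ 0 h at 12 h (background 10.8% of genes), 5 at 24 h (14.3%) and 7 at 48 h (12.3%). DNMT3B, UHRF1, SUV39H1 and SUV39H2 were lower at all 3 times (4 of 9, background 6.39%). EZH1 was the member that was higher, at 24 h (15.7%) and at 48 h (19.0%), and 0 of 9 were higher at all 3 times (9.53%). With the p53-/- 0 h array as baseline, 3 members were lower at 12 h (background 11.0%), 3 at 24 h (13.7%) and 6 at 48 h (12.1%), the first 3 being DNMT3B, UHRF1 and SUV39H1. None was 2-fold higher with this baseline, where the background was 13.7%, 15.6% and 18.8% at the 3 times. From 24 to 48 h, without any 0 h array, UHRF1, HELLS, EZH2 and SUV39H1 fell at least 2-fold in p53+/+ cells, 4 of 9 against 6.07% of genes. These 4 steps use the p53+/+ 48 h array, on which no spike-in was detected. On their second probes UHRF1 went from -3.41 to -4.26 and SUV39H1 from -3.45 to -4.15, each less than 2-fold.

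In p53-/- cells UHRF1, HELLS and EZH2 were at least 2-fold higher than at 0 h at 12 h (3 of 9, background 4.82%), HELLS and EZH2 at 24 h (2 of 9, 9.65%) and HELLS at 48 h (1 of 9, 14.9%). HELLS was higher at all 3 times (background 3.21%) and 0 of 9 were lower at all 3 (2.04%). In the limma fit of treated arrays against 0 h, 0 of the 9 passed in p53-/- cells, where 0.0484% of probes were called lower and 0.00691% higher. There 1 of the 9, SUV39H2, had an unadjusted p under 0.05, as did 9.90% of probes. Each 0 h group is 1 array with no spread of its own, which the fit assumes to vary like the treated arrays. In p53+/+ cells, against the array labelled p53+/+ 0 h, UHRF1 (-4.40, adjusted p = 0.026) and SUV39H2 (-1.26, adjusted p = 0.044) passed as lower (background 2.81%) and 0 of the 9 as higher (4.18%), where 1, EZH1, had an unadjusted p under 0.05 (22.9% of probes had one in either direction).

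Whether the change from 0 h differed between genotypes was tested as an interaction on all 8 arrays. None of the 9 passed after adjustment in limma (background 0.746% lower and 0.940% higher), and 5 had an unadjusted p under 0.05, against 17.1% of probes. The estimate closest to passing was that of SUV39H2, -2.18 ± 0.39 (SE, adjusted p = 0.052), and the largest was that of UHRF1, -5.31 ± 1.13 (SE, adjusted p = 0.077). These estimates rest on the array labelled p53+/+ 0 h, and with p53-/- 0 h as the baseline of both genotypes the interaction becomes the comparison of treated arrays given above.

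The promoters of the 9 genes were searched for the E2F site TTTCCCGC, TTTCGCGC, TTTGCCGC or TTTGGCGC on both strands, since E2F factors are known regulators of S phase genes. RefSeq promoter windows of assembly GRCh38.p14, most of each upstream of the transcription start, held one of these in DNMT1, UHRF1, HELLS, EZH1 and EZH2, 5 of 9 genes, against 4.0% of 27305 genes. The stretches below show the match in capitals, which reads as the listed letters or as their reverse complement. DNMT1, UHRF1, HELLS and EZH2 are shown since they were lower in treated p53+/+ cells, and EZH1 since it was higher and holds a match too.
DNMT1 (chr19:10194944-10195003, minus strand): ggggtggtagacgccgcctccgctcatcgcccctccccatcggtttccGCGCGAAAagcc
UHRF1 (chr19:4909451-4909510, plus strand): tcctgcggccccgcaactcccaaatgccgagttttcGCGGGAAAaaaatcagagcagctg
HELLS (chr10:94545738-94545797, plus strand): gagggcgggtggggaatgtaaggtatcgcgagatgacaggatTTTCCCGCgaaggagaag
EZH2 (chr7:148884282-148884341, minus strand): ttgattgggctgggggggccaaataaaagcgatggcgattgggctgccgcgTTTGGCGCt
EZH1 (chr17:42745122-42745181, minus strand): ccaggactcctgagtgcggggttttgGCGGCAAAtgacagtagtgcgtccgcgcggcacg
The first 4 stretches end 10 bases after the start, whereas the match of EZH1 lies further upstream, in a stretch from base -141 to -82. UHRF1 has 3 windows in the table, and a further one held TTTCGCGC, while HELLS held a second match upstream of the one shown. SUV39H2, DNMT3B and SUV39H1, which were also lower, held none of these letters in their windows, nor did DNMT3A. The CCAAT box was found in 5 of 9 genes (39.7% of all genes) and TTTGAA or TTTAAA, the cell cycle homology region, in 2 of 9 (27.9%). A match describes letters only, and binding was not measured.

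Markers of dividing cells were lower in treated p53+/+ cells, as were 7 of the 9 genes but not DNMT3A and EZH1. The median level of 18 proliferation markers went in p53+/+ cells from 2.76 (array labelled p53+/+ 0 h) to 1.3, 0.78 and -2.48 at the 3 later times, against 2.43, 2.91, 3.01 and 2.89 in p53-/- cells. All 18 were well above background on at least 1 array, and 7 of 18 passed as lower in treated p53+/+ cells, against 7.40% of all probes. Their median change in p53+/+ cells was -1.48, -1.91 and -4.84 at the 3 times, and that of the 9 genes -0.94, -1.1 and -2.09. In p53-/- cells the median change of the 9 genes was 0.67, 0.75 and 0.60, and that of all genes lay between -0.04 and 0.16 over both genotypes. In p53-/- cells the 18 markers were split. At 12 h 8 of them were below and 10 above 0 h, from -2.33 for PLK1 to 1.51 for RRM2. Those above were MCM2 to MCM7, GINS2, CDC45, TYMS and RRM2. At least 2-fold higher were 4 of the 18, MCM2, MCM6, GINS2 and RRM2 (background 4.82% of genes). At least 2-fold lower were 3 of the 18 (5.62%). Of the 9 genes, UHRF1, EZH2 and HELLS were also at least 2-fold higher. The part of the share of dividing cells in these differences was not tested, and in bulk RNA fewer cells of a kind and less RNA per cell cannot be told apart.

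**Figure D4:**
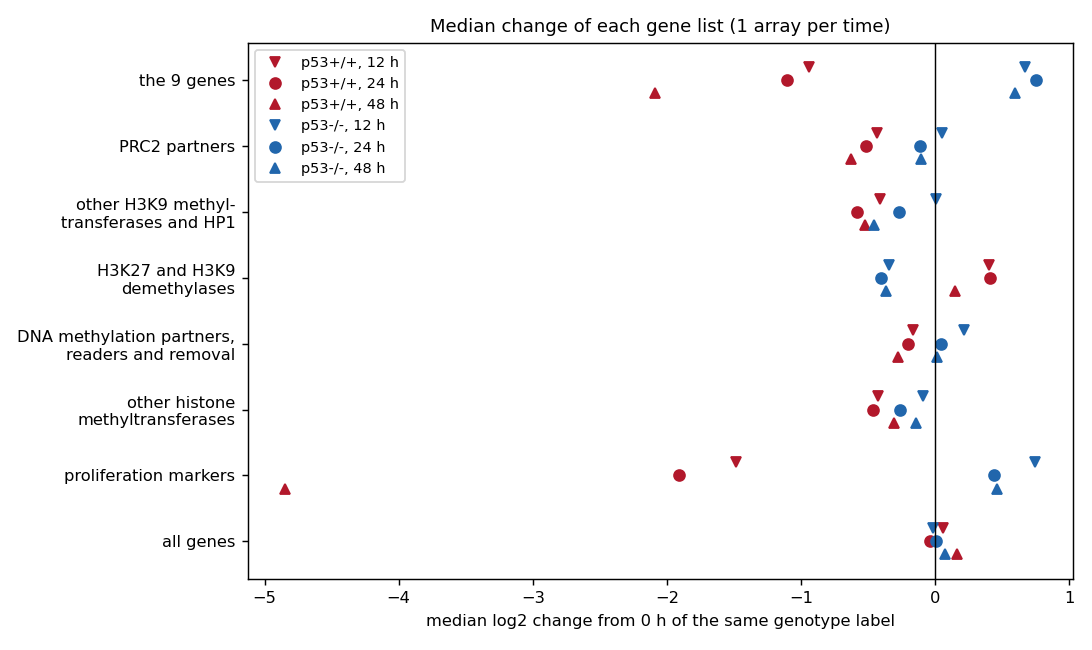
Median log2 change from the 0 h array of the same genotype label for the 9 genes, 6 lists of related genes and all genes, at 12, 24 and 48 h (downward triangles, circles, upward triangles), in p53+/+ (red) and p53-/- cells (blue). The medians of the 9 genes and of the proliferation markers lie on the negative side for p53+/+ and on the positive side for p53-/- cells. The DNA methylation partners, readers and removal show the same signs at smaller sizes (-0.17, -0.20 and -0.28 against 0.22, 0.04 and 0.01). The demethylases show the opposite signs with this scaling (not computed for other scalings), and all genes stay between -0.04 and 0.16.

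The partners of the 9 genes were taken from lists, with the median difference between treated genotypes over all genes at 0.05 and that of the 9 at -1.64. Of all probes, 7.40% were called lower and 10.6% higher in treated p53+/+ cells, which is the background for each list below. Of the PRC2 partners, 8 of 9 were measured (EED was not), 3 passed as lower in treated p53+/+ cells (SUZ12, RBBP7 and PHF19) and 1, AEBP2, as higher, with a median of -0.43. SUZ12, the core subunit that EZH1 and EZH2 share, was lower by a fitted difference of -0.70 (adjusted p = 0.037), less than EZH2. PHF19, which binds PRC2 to methylated H3, had -2.43 (adjusted p = 0.022) and changes of -1.89, -2.58 and -3.84 from the array labelled p53+/+ 0 h, and it was lower after treatment in p53-/- cells too, by changes of -1.79, -1.30 and -0.87. Of the other H3K9 methyltransferases and HP1 proteins, 2 of 9 passed as lower and 0 as higher, CBX1 and CBX5 being the 2. EHMT2, which mono- and dimethylates the same lysine, had -0.75 and did not pass (adjusted p = 0.12 in limma).

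For the proteins that work with DNMT1 and UHRF1, read DNA methylation or remove it, 16 of 18 were well above background on at least 1 array, 4 passed as lower (UHRF2, CDCA7, CDCA7L and MBD4) and 1, TET2, as higher. UHRF2, the paralogue of UHRF1, had a fitted difference of -0.97 (adjusted p = 0.018), against -4.71 for UHRF1. CDCA7, which recruits HELLS to chromatin, had -2.17 (adjusted p = 0.0033) and MBD4, a glycosylase that repairs mismatches at methylated sites, had -1.77 (adjusted p = 0.0028). PCNA, the sliding clamp that DNMT1 binds, did not follow DNMT1. Its difference was 0.36 (adjusted p = 0.40 in limma). Its changes were 1.04, 1.36 and 0.42 from the array labelled p53+/+ 0 h, and 1.61, 1.82 and 1.5 in p53-/- cells. PCNA is a known p53 target, and what raised it was not tested. USP7, a deubiquitinase of DNMT1 and UHRF1, and APEX1, a base excision repair enzyme, were at least 2-fold below the array labelled p53+/+ 0 h at all 3 times but had fitted differences of -0.29 and -0.82 that did not pass.

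The demethylases of H3K27 and H3K9 had a median difference above 0, which depended on the scaling. Of 13 genes 12 were well above background on at least 1 array, 6 passed as higher in treated p53+/+ cells and 2, KDM1A and KDM4D, as lower (backgrounds of 10.6% and 7.40% of probes), with a median of 0.70. Without scaling 2 passed as higher and 2 as lower, with a median of 0.10. KDM4A, which removes H3K9 trimethylation, had 1.03 (adjusted p = 0.041). KDM6B, which acts on H3K27, was well above background on 3 arrays and its difference of 0.36 did not pass (adjusted p = 0.63 in limma). Of 22 other histone methyltransferases measured of 23, 3 passed as lower (KMT5A, NSD2 and NSD3, background 7.40%). Of the same 22, 2 passed as higher (KMT2C and NSD1, background 10.6%), and the median was -0.12. NSD2, which dimethylates H3K36, had -1.93 (adjusted p = 0.021), and KMT5C, which methylates histone H4, had 0.67 and did not pass (adjusted p = 0.11 in limma).

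The genes whose levels ran closest to those of UHRF1 over the 8 arrays, among 11820 well above background on all of them, were FBXO5, BAIAP2L2, GFPT2, MCM6 and DPYSL3. The mean absolute difference of their log2 levels from UHRF1, each centred on its own mean, was 0.28 for FBXO5 and 0.43 to 0.66 for the others. None of the other 8 members was as close, with DNMT3B nearest at 1.22. Those closest to EZH1 were PSKH1, LINC01478, TUT4, TINAGL1 and CUL9, at 0.08 to 0.13, and the nearest member was DNMT3A at 0.34. The distances describe the shape over these 8 arrays and scale with how far a gene moved.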

How the data were processed

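For 8 arrays of MCF10A RNA the authors deposited the files of Agilent Feature Extraction 10.7.3.1 (build hg19), in which the processed signal is an intensity already corrected for background by that software. The deposited table of the series held the same values (503808 of 503808 equal). Spots flagged non-uniform or outlying were dropped (14 of 42405 probes lost), log2 signals were set against the 75th percentile of each array (661 to 1199) and averaged per probe. A transcript table of GRCh38.p14 named 27227 probes (64.2%). A gene was read from its probe with the highest mean. The 28947 probes detected well above background somewhere were fitted in limma 3.58.1 (R 4.3.3) on the 6 treated arrays, or on 4 groups of all 8, and p-values were adjusted over all probes by the Benjamini-Hochberg method. Time points stood in for replicates, so p-values measure a difference against the movement over time. The fits were tested on simulated data. The rule for named genes took all 9 members, genes of each list past 2-fold at all 3 times (at most 4), partners or paralogues of members, and the 5 closest genes of UHRF1 and EZH1. List genes named without a value fell outside it and were named after their values were seen. Members and lists were chosen with earlier results of these data known. Alternatives were other scalings, normexp (offset 50), the mean of all probes, other filters, other fold rules, the other baseline, time as a block and each time left out. The arrays shared 1 slide, on which each genotype held its own column, so that genotype and slide position cannot be told apart. Some results are not reported here. The number of arrays limits the precision. Python 3.11.15, numpy 2.4.6, pandas 2.3.3 and matplotlib 3.10.9 were used.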

Additional observations from a re-analysis of the deposited data

Results flagged for a closer look

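For 6 genes every treated p53+/+ array lay on one side of the array labelled p53+/+ 0 h and every treated p53-/- array on the other side of its own 0 h array. The mean log2 change with p53 minus the one without it was -1.99 for DNMT1 (-1.32 against 0.67), -5.31 for UHRF1 (-4.40 against 0.91), -2.38 for HELLS (-1.04 against 1.35), -2.32 for EZH2 (-1.27 against 1.04) and -2.18 for SUV39H2 (-1.26 against 0.92). For EZH1 the signs were turned, at 1.95 (1.27 against -0.68). The interaction test passed for none of the 6 after adjustment in limma, and all 6 values rest on the array labelled p53+/+ 0 h.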

How the results depend on the processing

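In all 12 settings of the comparison of treated arrays (11 for DNMT3B), the 9 genes kept their direction. The count of members called lower, 5, ranged from 0 to 7 when each time point was left out, with 0 without the 24 h arrays and 7 without the 48 h arrays. Of all probes, 7.40% were called lower in the main fit. That share was 4.18%, 0.294% and 3.91% without the 12, 24 and 48 h arrays. The 2 called higher became 0 without scaling, 1 (EZH1) with the mean of all probes and 0 to 0 with each time point left out. The share of all probes called higher was 10.6% in the main fit and 4.72% without scaling. With the mean of all probes it was 13.3% of genes. Without the 12, 24 and 48 h arrays it was 5.04%, 0.715% and 4.97%. UHRF1 lay between -5.30 and -4.15, with adjusted p from 0.00029 to 0.094. For the interaction, in which each 0 h group is 1 array, the calls changed with the setting. The share of all probes called changed too. The estimate of UHRF1 lay between -6.11 and -4.76 and that of SUV39H2 between -2.99 and -2.08, while that of DNMT3A turned to -0.19 without scaling. For p53+/+ cells against the array labelled 0 h, which is 1 array, the calls also changed with the setting. By the size rule at all 3 times, the 4 lower members in p53+/+ cells became 3 with the mean of all probes, without SUV39H1. They became 5 with median scaling, 6 without scaling or with a 1.5-fold rule, 2 with normexp and 1 with a 3-fold rule. The 0 higher became 1 (EZH1) with a 1.5-fold rule and 0 to 1 with each time left out. The 1 higher member in p53-/- cells, HELLS, became 0 with median scaling, 5 without scaling, 0 with a 3-fold rule, 5 with a 1.5-fold rule and 1 to 2 with each time left out. The shares of all genes past the size rule were not computed for these settings. The median fitted change of all probes in p53-/- cells was 0.36 without scaling, against -0.03 with the 75th percentile. The causes were not tested. The genotypes can be paired by time point, and with time as a block the same 5 members were called lower and the same 2 higher among treated arrays. There are no replicate numbers to pair by. With p53-/- 0 h as the baseline of both genotypes the interaction could not be run apart from the comparison of treated arrays. Alternatives that left out a time in the size rule, and those of the fits against 0 h, were chosen after seeing the data. DNMT3B at 48 h in p53+/+ cells was limited by background.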
